A study of Mus musculus with 10 samples.

Results

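Gene expression at passage 10 (p10) was compared between mouse embryonic stem cells (mESCs) grown in suspension and the same lines grown attached to gelatin. The comparison used 4 of the 10 RNA-seq libraries of the series, chosen by their labels: the 2 libraries labelled p10 New and the 2 labelled p10 Old. The mESCs were male and of the C57/Bl6 strain. They came from 2 independently derived lines, and each line gave 1 library to each group. All cells were kept in 2i medium with leukaemia inhibitory factor (LIF), in which inhibitors of MEK and GSK3 hold mESCs in the naive state. New stands for the Keniry2022 method of the study, with cells in suspension in plates not treated for tissue culture and passaged daily in low oxygen. Old stands for the Mulas2019 method, with cells on gelatin passaged every second day at a lower density and in less medium. The sources used here do not give the oxygen level of the Mulas2019 cultures. The 2 groups had the same number of passages but not the same number of days in culture, and attachment, passaging interval, density and medium volume changed together, so their parts cannot be told apart. Both lines were derived under Keniry2022 conditions, and the starting cells (p0) therefore carried that history too.

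Attachment to a matrix acts on cells through integrins, focal adhesions and the actin cytoskeleton. The integrated stress response is a pathway in which kinases that sense amino acid shortage, unfolded protein or haem shortage phosphorylate eIF2α. Translation of the transcription factor ATF4 then rises, and ATF4 switches on genes for amino acid synthesis, amino acid import and tRNA charging. Hypoxia-inducible factors (HIFs) are stabilised when oxygen is scarce and switch on genes for glycolysis, glucose uptake and vessel growth.

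Library totals in the 4 p10 libraries were 28314563 and 28868421 reads under Keniry2022 and 24240642 and 30236823 under Mulas2019, the range over all 10 being 24053996 to 30236823. Reads of 4 Y-linked genes (Ddx3y, Eif2s3y, Kdm5d and Uty) summed to 94 and 43 in the line 1 libraries of Keniry2022 and Mulas2019, and to 7929 and 5930 in those of line 2. Replicate numbers and lines therefore matched at p10, whereas the p20 Keniry2022 pair had the opposite order (6659 and 48 reads), so the p20 numbers were not used to pair libraries. The p20 Mulas2019 pair had 13 and 4578 reads. The p0 pair had 132 and 8140 reads, so the lines already differed in Y-linked reads before they were split between the methods. The study reports that the Y chromosome was lost from a line during derivation, before the cultures compared here. The lines are therefore not alike in Y-linked expression, and their karyotype was not tested here. Pluripotency genes marked all 4 libraries as mESCs, with summed reads of 8 mESC markers between 115557 and 156921. None of 7 primitive endoderm, 5 mesoderm, 6 fibroblast or 6 measured 2-cell-like markers had enough signal to be tested. Summed reads at p10 were 230 and 275 under Keniry2022 against 236 and 295 under Mulas2019 for primitive endoderm, and 40 and 49 against 24 and 47 for mesoderm. They were 122 and 122 against 106 and 128 for fibroblasts, and 157 and 186 against 95 and 115 for 2-cell-like cells. Of the 6 fibroblast markers, Col3a1, Col1a2 and Dcn had 0 reads in each p10 library. Under Keniry2022 and Mulas2019 Col1a1 had 52 and 55 against 22 and 43 reads, Thy1 29 and 24 against 11 and 6, and Pdgfrb 41 and 43 against 73 and 79.

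Features were tested when their log2 RPKM value (reads scaled by exon length and library total) was above 0 in at least 50% of the 8 cultured libraries, and a feature was called at an adjusted p under 0.05. Of 11654 tested features, 5631 were called at p10 (48.3%), of which 2890 were higher (24.8%) and 2741 lower (23.5%) under Keniry2022. The differences were mostly small. The median size of a called difference was 0.355 on the log2 scale, 1398 calls were under 0.25, and 279 (2.39%) reached 1, with 103 higher (0.884%) and 176 lower (1.51%). In every called feature the 2 libraries of a method did not overlap those of the other, as in 76.6% of all tested features, and all 5631 moved in the same direction in both lines, against 85% of all tested features. The SD of the method difference across features was 0.384, and the SD between the lines within a method was 0.229 under Keniry2022 and 0.248 under Mulas2019. The median difference over all tested features was 0.004. The reads of a feature that overlaps another cannot be assigned with confidence, and among the genes named in the text these were Enox1, Nhp2, Apex1, Ndufa4l2, Bhlhe40, Arhgef2, Ndrg1, Alpk3, Anxa2, Shmt2, Atf5, Cebpb, Ddit3, Psph, Slc7a5, Herpud1, Vars, Tdh, Pdia3, Hif1a, Egln2, Slc2a1, Tpi1, Gys1, Pdha1, Pfkm, Lss, Mrps24, Ndufs1, Psmc3, Dnaja1, Pou5f1, Sox2, Dnmt3b, Dnmt3l, Dnmt3a, Mest, Igf2r, Gnas, Jun, Notum, Axin2, Col4a1, Col4a2, Fn1, Vasp, Ctgf, Cldn3, Dsp, Pole, Ube2c, Cdk4, Ccnd1, Taf1c and Tes.

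**Figure D1:**
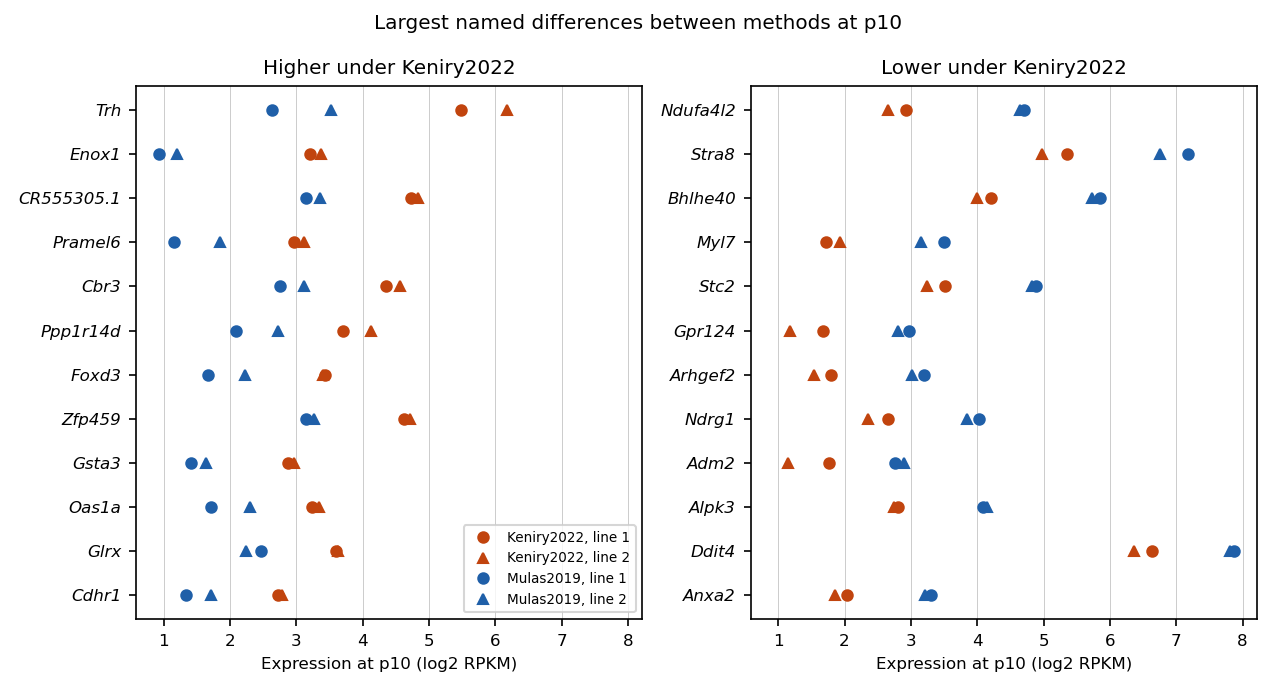
Expression (log2 RPKM, x axis) of the 12 genes with the largest called rise and the 12 with the largest called fall among expressed, named genes, in each of the 4 p10 libraries. Circles are line 1 and triangles line 2, orange is Keniry2022 and blue Mulas2019. The orange and blue points are apart in every gene.

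Among genes with a mean log2 RPKM of at least 2, the largest rise under Keniry2022 was that of Trh, which encodes the precursor of thyrotropin-releasing hormone. It had log2 RPKM values of 5.48 and 6.18 under Keniry2022 and 2.63 and 3.52 under Mulas2019. Its level was 6.72-fold higher (log2 difference 2.75, SE 0.289, adjusted p = 0.000305), and both p0 libraries (5.22 and 4.99) lay on the Keniry2022 side. Cbr3, a carbonyl reductase regulated by the antioxidant factor NRF2, was at 4.35 and 4.56 against 2.76 and 3.11 (log2 difference 1.52, SE 0.12, adjusted p = 0.000129). Zfp459, a zinc finger gene, was at 4.63 and 4.71 against 3.14 and 3.26 (log2 difference 1.47, SE 0.062, adjusted p = 6.4e-05). Foxd3, a forkhead factor of pluripotent cells, was at 3.44 and 3.41 against 1.67 and 2.23 (log2 difference 1.47, SE 0.21, adjusted p = 0.00101). The 2 p0 libraries held 3.78 and 3.07 of it, also near Keniry2022. Others of the 12 were Pramel6 (1.53), Ppp1r14d (1.5), the glutathione transferase Gsta3 (1.39), Oas1a (1.28), Glrx (1.25) and Cdhr1 (1.23). Enox1 (2.22) and CR555305.1 (1.53) complete the set. Among abundant genes, with a mean log2 RPKM of at least 7, the largest rises were those of Fbxo15 (0.69), the stress granule protein gene G3bp2 (0.64), Nhp2 (0.63), the DNA repair enzyme gene Apex1 (0.62), Ei24 (0.58) and Dazl (0.58).

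Falls reached similar sizes. Loxl2, a lysyl oxidase that cross-links collagen, was at -1.19 and -1.09 under Keniry2022 and at 1.57 and 1.57 under Mulas2019. It was 6.54-fold lower (log2 difference -2.71, SE 0.131, adjusted p = 6.4e-05). At p10 Loxl2 was above 0 only under Mulas2019, so its p-value is no independent support. Its mean of 0.22 is below the level of 2 set for the 12 largest falls plotted. Among those 12, Stra8, a gene of meiotic entry that responds to retinoic acid, was at 5.35 and 4.97 against 7.18 and 6.76 (log2 difference -1.81, SE 0.173, adjusted p = 0.000235), with p0 at 5.30 and 5.10. Ddit4, which inhibits mTORC1 and is a target of both ATF4 and HIF1, was at 6.63 and 6.37 against 7.87 and 7.81 (log2 difference -1.34, SE 0.098, adjusted p = 0.000109). The others of the 12 were Ndufa4l2 (-1.88), Bhlhe40 (-1.69), Myl7 (-1.51), Stc2 (-1.48), Gpr124 (-1.46), Arhgef2 (-1.44), Ndrg1 (-1.42), Adm2 (-1.36), Alpk3 (-1.35) and Anxa2 (-1.32). The abundant genes that fell most beside Ddit4 were Fam162a (-0.99), the metallothionein gene Mt2 (-0.80), Ldha (-0.77), Shmt2 (-0.74) and Slc2a3 (-0.73).

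Genes of the integrated stress response fell together under Keniry2022. Of 36 tested members of the list, 33 were called lower and 1 higher, against 23.5% and 24.8% of all tested features, and the median difference was -0.60, against 0.004 over all features. Transcription factors of the pathway were among them. Atf5, itself induced by eIF2α phosphorylation, was at 4.01 and 3.82 under Keniry2022 and at 5.11 and 5.14 under Mulas2019 (log2 difference -1.21, SE 0.067, adjusted p = 7.4e-05). Cebpb (-1.40), Ddit3, which encodes CHOP (-0.85), Cebpg (-0.59) and Trib3, an inhibitory partner of ATF4 (-0.97), were called lower too. Atf4 itself, whose product is controlled mainly in translation, had a difference of -0.11 and was not called.

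The largest fall of the list was that of Vldlr, a lipoprotein receptor (-1.83). Secreted products of the pathway were lower as well. Stc2, a stanniocalcin, was at 3.51 and 3.25 against 4.88 and 4.83, a 2.78-fold lower level (log2 difference -1.48, SE 0.099, adjusted p = 7.9e-05). Vegfa, the vessel growth factor, was at 3.95 and 3.80 against 5.12 and 5.08 (log2 difference -1.22, SE 0.062, adjusted p = 6.4e-05). Fgf21 (-1.43) and Gdf15 (-0.91), both hormones released by stressed cells, were also called. Enzymes of serine and proline synthesis followed, with Phgdh at -0.65, Psph at -0.60, Psat1 at -0.45, Aldh18a1 at -0.77 and Pycr1 at -0.68. Shmt2, the mitochondrial enzyme that turns serine into glycine, was at 6.81 and 6.68 against 7.51 and 7.47 (log2 difference -0.74, SE 0.075, adjusted p = 0.000263). Amino acid transporters fell less (Slc7a1 -0.37, Slc3a2 -0.29, Slc38a2 -0.28, Slc7a5 -0.20), and Slc7a3 was the 1 member called higher (0.58). The genes named for their place in a list here and below, beyond those of the naming rule, were chosen after their values were seen.

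ATF4 and C/EBP factors bind a composite element that contains TGATGNAA. The letters were searched on both strands in the 250 bases before the RefSeq start site (build GRCm38.p6) of the tested features. Of 32 stress response members with a matched promoter, 7 held a match (21.9%), as did 144 of 8013 matched promoters of all tested features (1.8%). The 7 were Fgf21, Nupr1, Pycr1, Chac1, Pck2, Herpud1 and Asns, all called lower, as were 31 of the 32 members with a matched promoter. The list was made of known genes of the ATF4 pathway, so its larger share of matches is no test of these data. A match is a description of the sequence and not a bound site. The promoters of 4 of these are shown because they carry the element in a group of genes that moved together, and capitals mark the match on either strand.
Fgf21, chr7:45615491-45615740, minus strand: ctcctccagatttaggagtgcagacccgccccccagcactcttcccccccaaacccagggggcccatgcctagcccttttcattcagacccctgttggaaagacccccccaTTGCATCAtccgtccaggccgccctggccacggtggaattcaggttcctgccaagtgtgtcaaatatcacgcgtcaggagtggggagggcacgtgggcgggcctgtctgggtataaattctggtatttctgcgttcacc
Pycr1, chr11:120643749-120643998, minus strand: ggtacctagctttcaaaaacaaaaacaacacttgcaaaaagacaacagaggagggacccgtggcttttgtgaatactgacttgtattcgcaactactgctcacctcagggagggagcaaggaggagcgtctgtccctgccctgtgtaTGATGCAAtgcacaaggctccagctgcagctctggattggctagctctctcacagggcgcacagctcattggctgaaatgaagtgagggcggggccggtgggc
Chac1, chr2:119350992-119351241, plus strand: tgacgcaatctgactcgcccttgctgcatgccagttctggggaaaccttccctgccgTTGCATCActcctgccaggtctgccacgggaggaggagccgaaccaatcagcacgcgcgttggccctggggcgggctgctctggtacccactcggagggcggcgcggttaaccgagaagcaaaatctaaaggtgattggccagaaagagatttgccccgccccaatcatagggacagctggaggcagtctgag
Pck2, chr14:55540016-55540265, plus strand: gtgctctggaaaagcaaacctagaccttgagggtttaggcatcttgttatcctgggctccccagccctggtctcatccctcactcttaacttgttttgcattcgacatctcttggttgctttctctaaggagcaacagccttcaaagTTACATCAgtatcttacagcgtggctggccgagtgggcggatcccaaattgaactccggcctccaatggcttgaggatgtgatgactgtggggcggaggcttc
Chac1, which degrades glutathione, had a log2 difference of -0.61, and Pck2, the mitochondrial phosphoenolpyruvate carboxykinase, one of -0.54. The matches began 139, 103, 193 and 103 bases before the start site in Fgf21, Pycr1, Chac1 and Pck2.

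**Figure D2:**
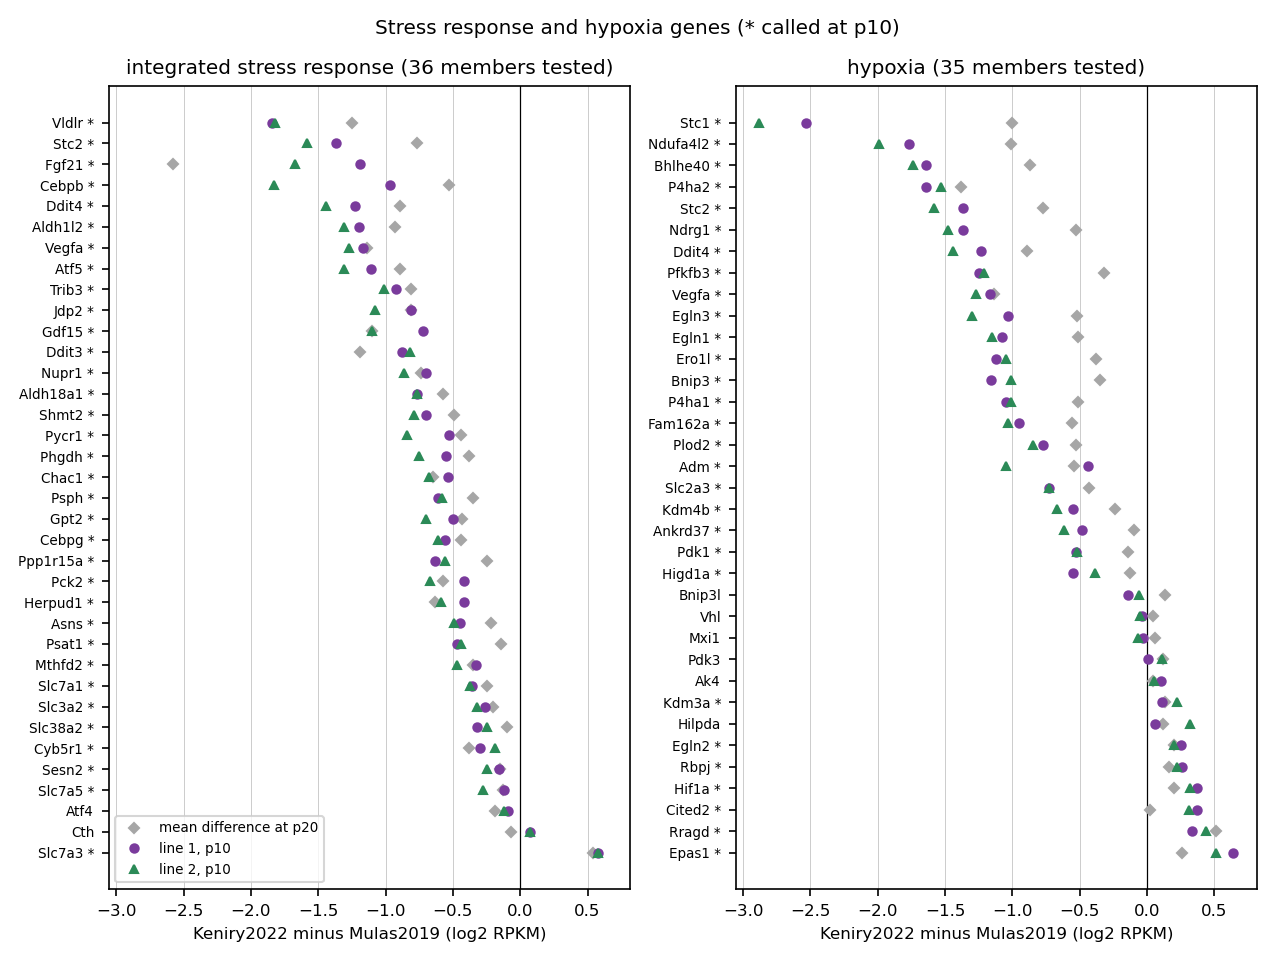
Difference in expression (Keniry2022 minus Mulas2019, log2 RPKM, x axis) of every tested member of the integrated stress response list (left, 36 members) and the hypoxia list (right, 35 members). Circles and triangles are lines 1 and 2 at p10, grey diamonds the mean difference at p20, and asterisks mark members called at p10. Of the members, 33 were called lower in the stress response list and 22 in the hypoxia list.

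The aminoacyl-tRNA synthetases, several of which are ATF4 targets, were divided. Of 23 tested, 12 were called lower and 8 higher (87.0% called against 48.3% of all tested features), with a median of -0.12. Gars was at 7.72 and 7.65 against 8.24 and 8.17 (log2 difference -0.52, SE 0.049, adjusted p = 0.000217), Sars fell by 0.47 and Vars by 0.44. Aimp1 (0.43) and Rars (0.37) were higher. Genes of glycine, serine and folate metabolism had 7 of 24 called in each direction, nearer to the shares of all tested features (58.3% called against 48.3%). Their median was 0.03. Mthfd1l fell by 0.52. Tdh, the threonine dehydrogenase on which mESCs depend, was at 7.17 and 7.28 against 6.22 and 6.35 (log2 difference 0.94, SE 0.06, adjusted p = 7.6e-05). Genes of the unfolded protein response in the endoplasmic reticulum had 8 of 20 members higher and 2 lower (50% called, near the 48.3% of all tested features), with a median of 0.08 that was -0.01 after quantile normalisation. The disulphide isomerase gene Pdia3 (0.25) was among those higher, and Sel1l (-0.54) and Edem1 (-0.36), which serve degradation of misfolded proteins, were the 2 lower.

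Targets of HIF fell to a similar degree. Of 35 tested members of the hypoxia list, 22 were called lower and 7 higher, against 23.5% and 24.8% of all tested features. The share called was 82.9%, against 48.3% of all tested features, and the median was -0.73. Ndufa4l2, a mitochondrial protein gene induced by HIF1, was at 2.93 and 2.65 under Keniry2022 and at 4.70 and 4.64 under Mulas2019, a 3.68-fold lower level (log2 difference -1.88, SE 0.105, adjusted p = 7.4e-05). Bhlhe40, a transcriptional repressor, was at 4.21 and 4.0 against 5.85 and 5.73 (log2 difference -1.69, SE 0.086, adjusted p = 6.4e-05). Stc1, the other stanniocalcin, had the largest fall of the list (-2.70), and the oxygen sensors Egln3 (-1.17) and Egln1 (-1.11), the mitophagy gene Bnip3 (-1.08) and Ero1l (-1.09) were called lower. The 7 members called higher were Epas1 (0.57) and Hif1a (0.34), which encode HIF subunits themselves, together with Rragd (0.39), Cited2 (0.34), Rbpj (0.24), Egln2 (0.23) and Kdm3a (0.17). Vhl (-0.05) was not called. Without line 1 of Mulas2019 or without line 2 of Keniry2022 the higher count dropped from 7 to 3, while 21 or 22 members stayed called lower whichever library was left out.

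Glycolytic genes were lower at most steps of the pathway. Of 31 tested, 22 were called lower and 4 higher (83.9% called against 48.3% of all tested features), and the median was -0.57. Glucose uptake and phosphorylation (Slc2a3 -0.73, Slc2a1 -0.72, Hk2 -0.60) and the middle steps (Aldoa -0.40, Tpi1 -0.58, Pgk1 -0.59, Pgam1 -0.58, Eno1 -0.49) were affected. Pfkl, the liver isoform of phosphofructokinase, was at 5.96 and 5.90 against 7.0 and 6.98 (log2 difference -1.06, SE 0.068, adjusted p = 7.6e-05). Gpi1 was at 6.62 and 6.58 against 7.43 and 7.35 (log2 difference -0.79, SE 0.053, adjusted p = 7.9e-05). Ldha, which makes lactate from pyruvate, was at 8.58 and 8.55 against 9.34 and 9.32 (log2 difference -0.77, SE 0.062, adjusted p = 0.000136). Gys1, glycogen synthase, fell by 0.85. The 4 genes higher under Keniry2022 were Pdha1 (0.62) and Pdhb (0.44), subunits of the pyruvate dehydrogenase that feeds the citric acid cycle, and Pfkm (0.21) and Pgm1 (0.19). Pdk1, Pfkfb3 and Slc2a3 are in the hypoxia and glycolysis lists alike, and Ddit4, Stc2 and Vegfa are in the hypoxia and stress response lists, so the counts of these lists are not independent.

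Sterol and fatty acid synthesis was lower by less. Of 35 tested genes, 24 were called lower and 2 higher (74.3% called against 48.3% of all tested features), with a median of -0.23. Scd2, a stearoyl-CoA desaturase, was at 7.43 and 7.46 against 7.90 and 7.92 (log2 difference -0.46, SE 0.041, adjusted p = 0.000177). Dhcr7 (-0.70) and Lss (-0.63) fell, while Hmgcs1 (0.31) and Ebp (0.40) rose. Without line 2 of Keniry2022, 15 members were called lower.

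**Figure D3:**
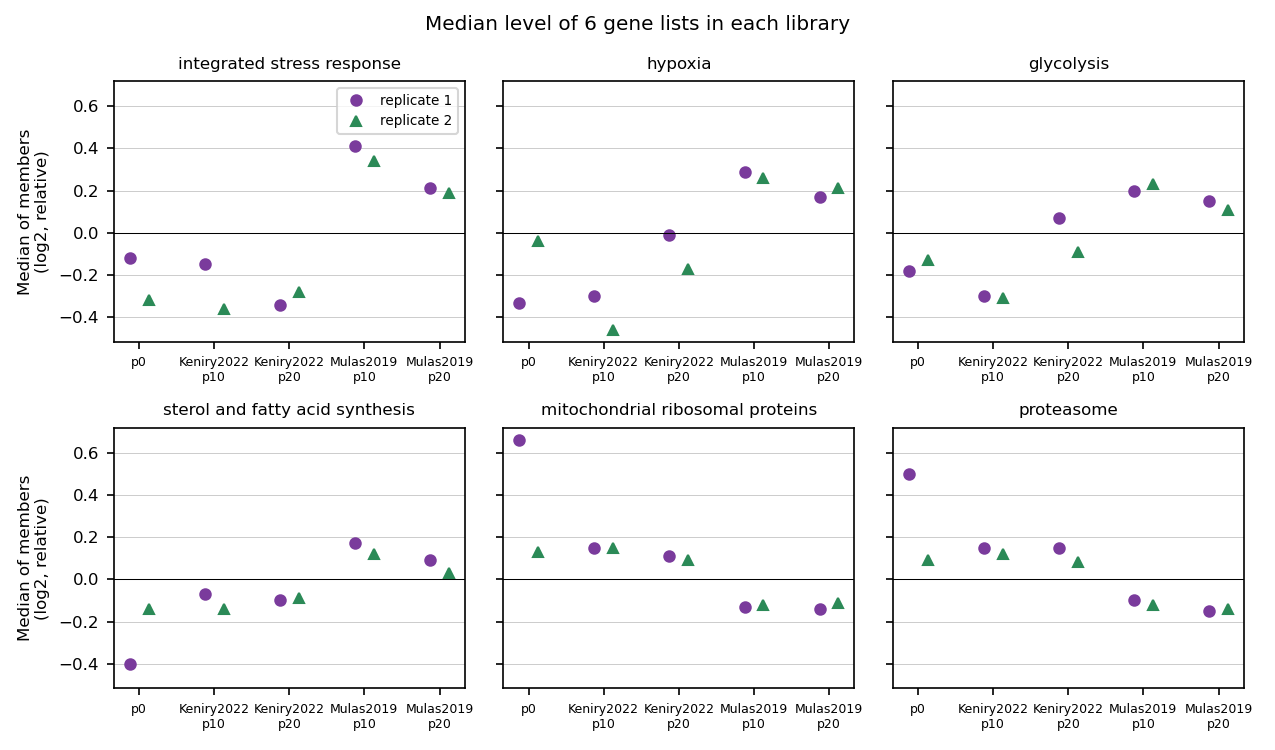
Median over the members of 6 gene lists in each of the 10 libraries (y axis, log2 RPKM relative to each member's mean over the 8 cultured libraries). Circles are replicate 1 and triangles replicate 2 of each group on the x axis. In the stress response list the p10 libraries were at -0.15 and -0.36 under Keniry2022 and 0.41 and 0.34 under Mulas2019.

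Genes of growth and energy metabolism rose under Keniry2022, by small amounts each. Of 75 tested mitochondrial ribosomal protein genes, 54 were called higher and none (0) lower, against 24.8% and 23.5% of all tested features. Their share called was 72.0%, against 48.3% of all tested features, and their median 0.30. Mrps24 was at 5.93 and 5.84 against 5.36 and 5.4 (log2 difference 0.51, SE 0.049, adjusted p = 0.000235). Of 79 nuclear genes of oxidative phosphorylation, 48 were higher and 3 lower (64.6% called, median 0.22). Of 45 proteasome genes, 34 were higher and 1 lower (77.8% called, median 0.27). Ndufs1, a core subunit of complex I, rose by 0.42, and Psmc3, an ATPase of the proteasome cap, by 0.44. Of 83 ribosome biogenesis genes, 55 were higher and 2 lower (68.7% called, median 0.21). Nip7 was at 5.65 and 5.60 against 4.96 and 4.98 (log2 difference 0.66, SE 0.041, adjusted p = 7.6e-05). RNA polymerase I and III had 15 of 23 members higher and 2 lower (73.9% called, median 0.24). Cytosolic ribosomal proteins had 39 of 86 higher and 6 lower (52.3% called against 48.3% of all tested features, median 0.14). Rpl39l, a paralogue of Rpl39, was at 6.59 and 6.73 against 5.50 and 5.76 (log2 difference 1.03, SE 0.09, adjusted p = 0.000181). Ribosomal protein genes have many pseudogenes, and their reads cannot be assigned with confidence. Chaperones had 16 of 28 members higher and 4 lower (71.4% called, median 0.20). Dnaja1 (0.57) and Hsph1 (0.50) were among the former and Bag3 (-0.89) among the latter.

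Short and abundant features leaned to the higher side across the whole table, and these lists hold such genes. The median exon length was 2650 bases in features called higher, 4553 in those called lower and 3438 over all tested. Of calls with a mean log2 RPKM under 2, 28.3% were higher, against 45.1% between 2 and 4, 67.4% between 4 and 6, and 81.1% at 6 or more. After a correction of each library for exon length and GC content, the median fell from 0.30 to 0.19 for mitochondrial ribosomal proteins, from 0.22 to 0.10 for oxidative phosphorylation, from 0.27 to 0.17 for the proteasome and from 0.14 to 0.07 for cytosolic ribosomal proteins. After that correction it was 0.20 for ribosome biogenesis, -0.61 for the stress response and -0.64 for hypoxia. After quantile normalisation it was 0.23 for mitochondrial ribosomal proteins, 0.12 for oxidative phosphorylation, 0.14 for the proteasome, 0.06 for cytosolic ribosomal proteins and 0.10 for chaperones. Without line 1 of Keniry2022, 24 oxidative phosphorylation genes and 25 cytosolic ribosomal protein genes were called higher.

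**Figure D4:**
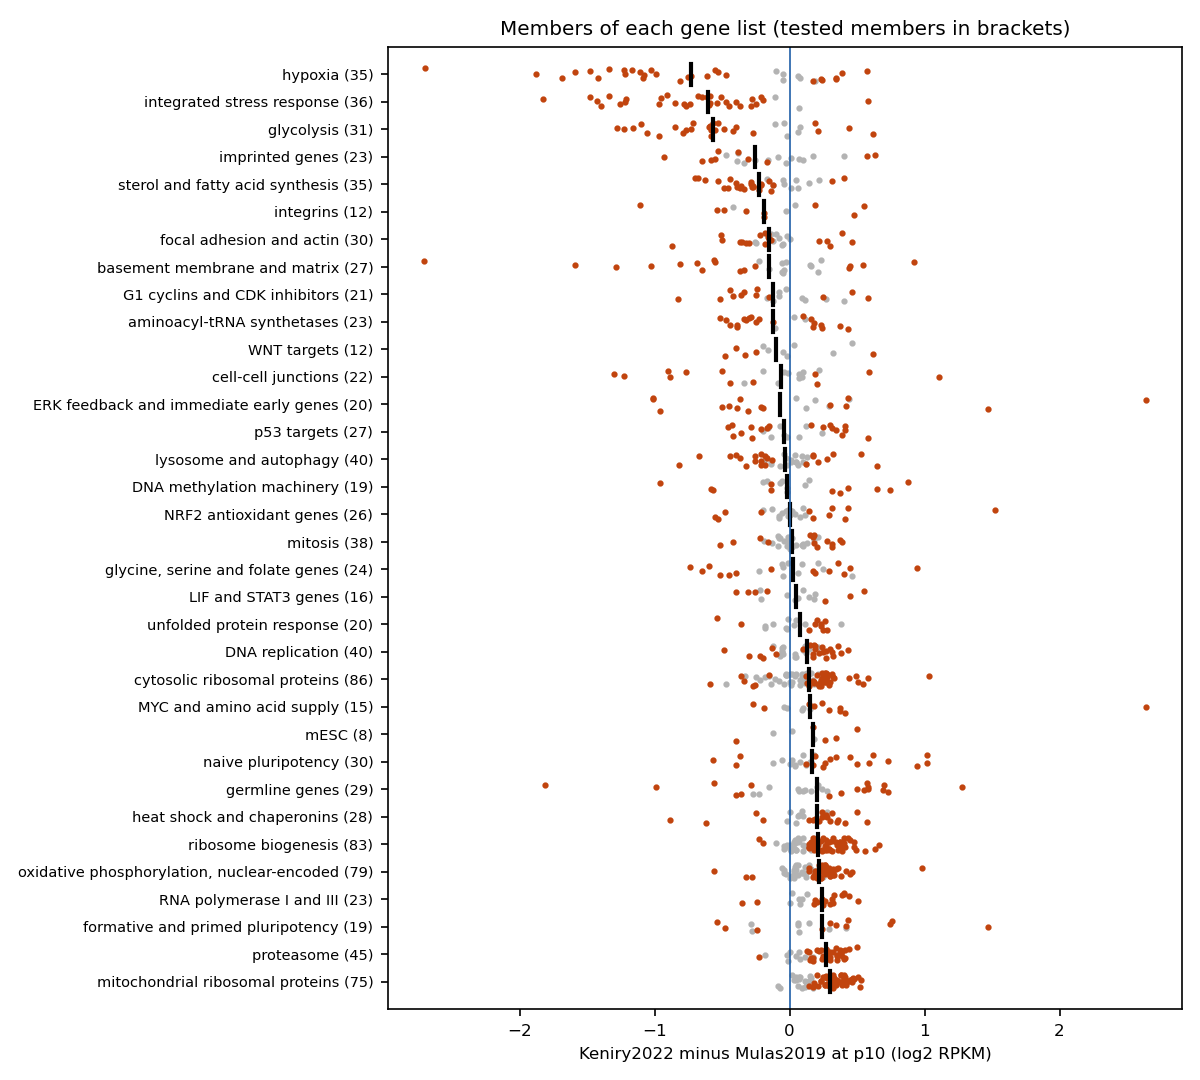
Difference at p10 (Keniry2022 minus Mulas2019, log2 RPKM, x axis) of each tested member of the gene lists with at least 5 tested members. Orange points are called members, grey points members not called, black bars the list medians and the blue line the median over all tested features (0.004). The hypoxia, stress response and glycolysis medians (-0.73, -0.60 and -0.57) lie farthest to the left.

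Pluripotency genes were expressed at a high level under both methods. Pou5f1, which encodes OCT4, was at 8.85 and 8.81 under Keniry2022 and at 8.29 and 8.37 under Mulas2019 (log2 difference 0.50, SE 0.04, adjusted p = 0.00013). Nanog was at 9.02 and 8.89 against 8.73 and 8.67 (log2 difference 0.26, SE 0.051, adjusted p = 0.00424), and Zfp42, also called Rex1, at 5.95 and 5.94 against 5.62 and 5.60 (log2 difference 0.34, SE 0.042, adjusted p = 0.000571). Klf4 went the other way, at 5.46 and 5.42 against 5.94 and 5.75 (log2 difference -0.40, SE 0.064, adjusted p = 0.00154). Sox2 (-0.12, SE 0.054, adjusted p = 0.108) and Esrrb (0.02, SE 0.039, adjusted p = 0.647) were not called. Over the naive pluripotency list, 15 of 30 members were higher and 3 lower (60.0% called against 48.3% of all tested features, median 0.17). Over the 8 mESC markers 4 were higher and 1 lower (62.5% called, median 0.17). Nr0b1, which encodes the nuclear receptor DAX1, was at 6.73 and 6.75 against 5.62 and 5.82, a 2.03-fold rise (log2 difference 1.02, SE 0.069, adjusted p = 7.9e-05). Dppa4 rose by 0.73 and Utf1 by 1.02. After quantile normalisation the medians were 0.04 for the naive list and 0.02 for the mESC markers.

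Genes of the formative and primed states also had more members higher than lower. Of 19 tested, 8 were higher and 3 lower (57.9% called against 48.3% of all tested features, median 0.24). Foxd3 is the largest of them, and the de novo DNA methyltransferase gene Dnmt3b (0.74) and the ERK-responsive Etv5 (0.30) rose, while Lefty1 (-0.54), Lef1 (-0.48) and Lin28b (-0.24) fell. In the DNA methylation machinery 6 of 19 were higher and 5 lower (57.9% called against 48.3% of all tested features, median -0.02). Dnmt3l (0.88), Dnmt3a (0.43), Hells (0.37) and Zfp57, which protects imprinted methylation, were higher, Zfp57 at 6.26 and 6.32 against 5.64 and 5.66 (log2 difference 0.65, SE 0.063, adjusted p = 0.000238). Tet3 (-0.96) was lower, at 0.0 and -0.2 under Keniry2022, near the filter level of 0, and 0.9 and 0.82 under Mulas2019. Dnmt1 (-0.07) and Uhrf1 (0.14) were not called. Germline genes, many of them silenced by DNA methylation, had 11 of 29 members higher and 6 lower (58.6% called, median 0.20). Stk31 (0.57) and Tex19.1 (0.55) rose, against Stra8 (-1.81). Imprinted genes had 2 of 23 higher and 8 lower (43.5% called against 48.3% of all tested features, median -0.26). Mest rose by 0.63, while Igf2r fell by 0.65 and Gnas by 0.58.

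Signalling lists moved little in their medians. Myc, which encodes the growth factor-responsive transcription factor, was at 1.26 and 1.43 under Keniry2022 and at -1.18 and -1.41 under Mulas2019. It was 6.22-fold higher (log2 difference 2.64, SE 0.279, adjusted p = 0.000314), while p0 was at 1.31 and 0.12. Myc passed the filter only through the Keniry2022 libraries, so its p-value is no independent support. Its reads at p10 were 184 and 211 under Keniry2022 and 29 and 31 under Mulas2019, where all values were below 0. Mycn, its relative, rose by 0.18. The list of MYC partners and targets had 8 of 15 higher and 2 lower (66.7% called against 48.3% of all tested features, median 0.15), with Odc1 at 0.37 and Nop58 at 0.41. Among ERK feedback and immediate early genes 5 of 20 were higher and 10 lower (75.0% called against 48.3% of all tested features, median -0.07). Etv1 was at 1.15 and 1.14 against -0.44 and -0.22 (log2 difference 1.47, SE 0.149, adjusted p = 0.000263). At p10 Etv1 was above 0 only under Keniry2022, so its p-value is no independent support. Jun (-0.96), Atf3 (-1.01) and Ier3 (-1.01) fell. WNT targets had 1 of 12 higher, the WNT antagonist Notum (0.62), and 4 lower (41.7% called against 48.3% of all tested features, median -0.10), and the direct target Axin2 (-0.02) was not called. LIF and STAT3 genes had 3 of 16 higher and 4 lower (43.8% called, median 0.05), with Socs2 at 0.55 and Pim1 at -0.31, and Socs3 (0.10) was not called. Of the NRF2 genes 7 of 26 were higher and 4 lower (42.3% called, median 0.00). The shares called of these last 3 lists were near or below that of all features. Nqo1 rose by 0.43 beside Cbr3, while Hmox1 fell by 0.55.

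Adhesion genes were lower more often than higher. Of 12 tested integrins and matrix receptors, 6 were lower and 3 higher (75.0% called against 48.3% of all tested features, median -0.19). Itgb4, a laminin receptor subunit of hemidesmosomes, was at -0.11 and -0.25 under Keniry2022 and at 0.97 and 0.90 under Mulas2019 (log2 difference -1.11, SE 0.153, adjusted p = 0.000881). It passed the filter only through the Mulas2019 libraries, all its Keniry2022 values being below 0, so its p-value is no independent support. Itgb1, the common β subunit, differed by -0.03 and was not called, and Itgb7 rose by 0.55. Of 27 basement membrane and matrix genes, 12 were lower and 4 higher (59.3% called, median -0.15). Beside Loxl2 these were collagen IV (Col4a1 -0.65, Col4a2 -1.29), laminin α1 (Lama1 -0.69), fibronectin (Fn1 -0.55) and the collagen hydroxylases P4ha2 (-1.59), P4ha1 (-1.03) and Plod2 (-0.81), the last 3 being in the hypoxia list too. Lgals3 (0.92) rose. Focal adhesion and actin genes had 14 of 30 lower and 5 higher (63.3% called, median -0.15). Myh9, the heavy chain of non-muscle myosin, was at 5.26 and 5.23 against 5.79 and 5.72 (log2 difference -0.51, SE 0.055, adjusted p = 0.000343), and Actg1 (-0.50) and Vasp (-0.37) fell, while the YAP targets Ctgf (-0.14) and Cyr61 (-0.05) were not called. With each library corrected for length and GC content, the medians of these lists became -0.07 (integrins), 0.00 (matrix) and -0.08 (focal adhesion). In cell-cell junctions 8 of 22 were lower and 4 higher (54.5% called against 48.3% of all tested features, median -0.07). The claudin gene Cldn3 (-1.30), the desmosome gene Dsp (-0.89) and Tjp1 (-0.44) fell and the connexin gene Gja1 (1.11) rose, while Cdh1, which encodes E-cadherin, had a difference of 0.10 and was not called. With a filter above log2 2 the median of the junction list was 0.07.

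A few genes that mark other lineages were lower under Keniry2022. Of 8 trophectoderm markers 3 were tested, and Krt18 (-1.14, with 39 and 31 reads against 63 and 84) and Tfap2c (-0.45), which mESCs also express, were called. At p10 Krt18 was above log2 0 only under Mulas2019, so its call is no independent support. The summed reads of the 8 were 2931 and 2637 against 3314 and 3967, most of them from Tfap2c. Cdx2, too low to be tested, went the other way with 9 and 14 against 2 and 8 reads. Of 5 neurectoderm markers only Nes was tested. It was at 1.95 and 1.85 against 2.77 and 2.52 (log2 difference -0.74, SE 0.094, adjusted p = 0.000615). The sum of the 5 was 1065 and 1075 against 1416 and 1502 reads, most of them from Nes (701 and 668 against 1062 and 1110). Pax6 had 312 and 328 against 296 and 310 reads, Sox1 29 and 41 against 33 and 42, and Otx1 21 and 36 against 25 and 39. In these bulk libraries, fewer cells of a type and less RNA per cell cannot be told apart.

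Of 40 DNA replication genes, 18 were higher and 6 lower (60.0% called against 48.3% of all tested features, median 0.12), with Rpa2 at 0.38 and Pole at -0.49. Of 38 mitosis genes 10 were higher and 4 lower, 36.8% called against 48.3% of all tested features, with a median of 0.01 that was -0.08 after quantile normalisation. Ube2c rose by 0.37, and Mki67, the proliferation marker, was at 4.92 and 5.02 against 5.41 and 5.36 (log2 difference -0.42, SE 0.046, adjusted p = 0.000369). Among G1 cyclins and CDK inhibitors 9 of 21 were lower and 3 higher (57.1% called against 48.3% of all tested features, median -0.12). The inhibitors Cdkn2c (-0.83), Cdkn1b (-0.52) and Cdkn2a (-0.44) fell, and Cdk4 (0.25) rose. At p10 Cdkn2c was above log2 0 only under Mulas2019, so its call is no independent support. The p53 targets had 9 of 27 in each direction (66.7% called against 48.3% of all tested features, median -0.04), with Bax at 0.41 and Cdkn1a at -0.15. Lysosome and autophagy genes had 15 of 40 lower and 8 higher (57.5% called, median -0.03), with Neu1 at -0.82 and Gabarapl2 at 0.53.

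The starting cells lay closer to Keniry2022. Of the 1519 features called at p10 with a difference of at least 0.5, the p0 mean was closer to the Keniry2022 mean in 1189 (78.3%), and this held for 75.4% with p0 replicate 1 alone and 76% with replicate 2 alone. The p0 pair differed more from each other (SD 0.613 across features) than the 4 cultured pairs (0.229 to 0.265). In the hypoxia list the p0 libraries were at -0.33 and -0.04 on the relative scale, against -0.30 and -0.46 under Keniry2022 and 0.29 and 0.26 under Mulas2019 at p10.

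The same comparison at passage 20 (p20), with other libraries of the same lines, gave 4280 calls (36.7%). Of the p10 calls 3309 were also called at p20, which is 58.8% of the p10 calls and 77.3% of the p20 calls, and 3292 of them had the same direction. A test of whether the method difference was unequal at p10 and p20 called 0 of 11654 features (smallest adjusted p = 0.0636), while 1836 had an unadjusted p under 0.05. By limma voom on reads worked out from the deposited values, the same test called 84. Side by side, the median was -0.73 at p10 and -0.32 at p20 for hypoxia, -0.57 and -0.16 for glycolysis, -0.60 and -0.47 for the stress response, and 0.30 and 0.21 for mitochondrial ribosomal proteins. Ldha had a difference of -0.77 at p10 and -0.17 at p20 (unadjusted p of the change = 0.000109), and Pfkl one of -1.06 and -0.40 (unadjusted p = 0.000104). Zfp57, at 0.65 and -0.01, had the smallest unadjusted p of the named genes (6.3e-05). None of these changes passed the adjustment, so that no gene is described here as particular to p10. Myc (2.64 and 1.26), Trh (2.75 and 1.57) and Loxl2 (-2.71 and -1.65) had the same direction at both passages, as did Itgb4 (-1.11 and -1.13). Myc and Itgb4 passed the filter only through the method in which they were higher, at both passages. At p10 Loxl2 was above 0 only under Mulas2019.

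**Figure D5:**
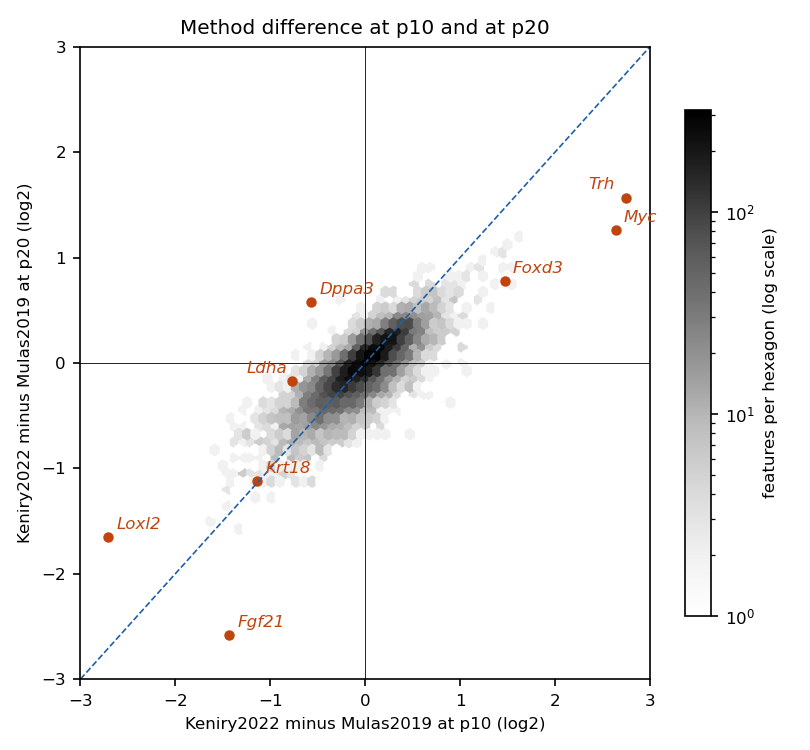
Difference between the methods (Keniry2022 minus Mulas2019, log2 RPKM) at p10 (x axis) and p20 (y axis) for 11654 features, shaded by features per hexagon on a log scale. Orange points are genes named in the text and the dashed line marks equal differences. Trh, Myc and Loxl2 had larger differences at p10, Fgf21 a larger one at p20, and Dppa3 opposite signs.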

How the data were processed

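RNA was sequenced from 10 libraries of 2 male mESC lines, and 8 of them (p10 and p20 under both methods) entered the fit. The authors deposited 1 table of log2 values for 25965 features. The study's methods describe trimmed single-end reads, HISAT2 alignment to mm10 and quantification in SeqMonk. TopHat2 2.0.12 and bcl2fastq stand in the processing notes of the submitters instead, so the aligner is uncertain. The deposited log2 values, named as CPM, behave as log2 RPKM with 0 reads entered as 0.9 reads, so differences of low features are understated. From these floors library totals were worked out, and reads for 99.997% of values came out whole within 0.1 reads. Lengths of 15661 features came from a search for whole reads, which is therefore no check, and reads were used only as a description and for voom. The sources used here do not give the annotation, the strand setting or the treatment of reads with several alignments. Counting error is the only error that read numbers cover. Features were matched to GENCODE vM21, and 7132 overlap another feature.

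The contrast p10 Keniry2022 minus p10 Mulas2019 was tested on the deposited values with the moderated test of limma 3.58.1 in R 4.3.3 (intensity trend, two-sided, Benjamini-Hochberg over all tested features), in a model of 4 groups with 8 libraries. The p0 pair was left out because it varies more. The authors pooled passages and used edgeR for scaling and voom. Each group had 2 libraries, 1 per line, so p-values measure the spread between single libraries of 2 lines. Library totals were 24240642 to 30236823 reads at p10. Same-numbered p10 libraries come from the same line by the study's methods, and their deviations correlated (r = 0.63), while those of p20 Keniry2022 correlated negatively with the other groups (-0.43 to -0.696). On simulated data for this comparison with 11654 features, 60% were recovered of 100 features given a log2 change of 0.5, and 92% of 100 given a change of 1, with 15 unchanged features called.

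The comparison, the gene lists and the rules were chosen with earlier results of these data known. Named genes were the 12 largest called differences per direction with a mean log2 RPKM of at least 2 and no predicted-gene or Riken name, the 6 largest with a mean of at least 7, the 3 called members of each of 40 lists with the smallest p, and 6 pluripotency genes. A few genes that met this rule are not reported here. List medians and counts are descriptions. Promoter sequences are those of RefSeq (GRCm38.p6), and 32 of 36 stress response members matched by symbol. Figures were drawn with matplotlib in Python. Alternatives tried were other libraries in the fit, the replicate number as a block, other scalings and filters, voom, library weights, a length and GC correction (89.8% of tested features had both), leaving out overlapping features and leaving out each library.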

Additional observations from a re-analysis of the deposited data

Results flagged for a closer look

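In 11 of the genes looked at and called at p10, the libraries of the 2 methods were apart at both passages but in opposite directions. They are no full count. Over all 11654 tested features, 3309 were called at both passages, and 17 of these had opposite directions. Differences (Keniry2022 minus Mulas2019, log2) at p10 and p20 were -0.57 and 0.58 for Dppa3, a maternal factor of the naive state, and -0.56 and 0.79 for the homeobox gene Rhox9. They were -0.32 and 0.25 for Atp5l, an ATP synthase subunit, and 0.22 and -0.32 for Cox6b2, a cytochrome oxidase subunit. They were 0.25 and -0.26 for the p53 target Perp, -0.18 and 0.14 for Tes, and -0.1 and 0.12 for the replicative helicase gene Mcm4. Those of Taf1c were 0.3 and -0.04, of Ccnd1 -0.25 and 0.05, of Sqle -0.15 and 0.05, and of Tars -0.12 and 0.04. The change between passages was tested by limma, with unadjusted p from 0.000294 (Atp5l) to 0.0247 (Tars), and in none of the 11 did it pass the adjustment over all features (adjusted p = 0.076 to 0.252).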

How the results depend on the processing

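The number of features called at p10 was 5631, and 986 were called when the noisier p0 pair was added to the fit (44.1% of them higher, against 51.3%), 981 of these being among the 5631. Leaving out each library in turn gave 3824 to 5672 calls, and the other alternatives 4043 to 6681. With the replicate block, 5533 features were called in 8 libraries, 5675 with the p20 Keniry2022 numbers exchanged and 6681 in the 4 p10 libraries alone, and no call of a named gene was lost. The test of p10 against p20 called 0 features, and 17 with the replicate block in 8 libraries (0 with the numbers exchanged), 2 with a filter above log2 2, 84 by voom and 0 to 16 with each library left out. Of 129 called genes chosen by the rule for naming, 126 stayed called under every alternative that tested them, except the fit with p0, in which 45 did not pass. Of the 131 genes chosen, 92 were tested with overlapping features left out and 119 with the filter above log2 2. The others were Cdk4 (adjusted p = 0.14 after quantile normalisation), Ccnd1 (0.109 without Keniry2022 replicate 1 and 0.0896 without Mulas2019 replicate 2 of p10) and Lef1 (0.0685 and 0.0619 without either Keniry2022 replicate and 0.0855 without Mulas2019 replicate 2 of p10). Sox2 was called by 3 alternatives and Esrrb by 1. No named gene changed direction. List medians kept their sign in 28 of 36 lists, and those near 0 (junctions, unfolded protein response, DNA methylation, p53, mitosis, ERK, NRF2 and folate genes) did not. With p0 in the fit 21 stress response, 13 hypoxia and 17 glycolysis genes were called lower and 1 mitochondrial ribosomal protein gene higher. With 2 libraries per group, small differences are resolved only where the lines vary little.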
